A study of Mus musculus with 6 samples.

Results

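The genes described here are 34 genes of fatty acid and ketone oxidation, listed by step and organelle, of 33184 genes in the deposited table. They were chosen by what their proteins do, with earlier results of these data known. All 34 were found in the table by symbol. They were measured by RNA-seq of skin wounds from db/db mice, a line that lacks a working leptin receptor and becomes obese and diabetic. A round wound of 6 mm was cut through epidermis and dermis. At 1 day post-injury (dpi1) a control siRNA (NC, 3 libraries) or an siRNA against SFRP2 (3 libraries) was injected around it. Wounds were collected and frozen at dpi4, although the sample titles carry day 3. All 6 libraries share the db/db genotype and the injury, and no unwounded skin, non-diabetic mouse or uninjected wound is among them. The samples hold whole wound tissue, so fewer cells of a type and less RNA per cell cannot be told apart. Each library was treated as 1 animal. The labels do not state this, so the p-values measure the spread between these libraries. The study lists 3 siRNA sequences under the numbers that the treated samples carry, and whether each wound got a different sequence is not stated.

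Long-chain fatty acids are joined to coenzyme A and carried into the mitochondrion as carnitine esters. There a cycle of dehydrogenation, hydration, a second dehydrogenation and thiolysis releases acetyl-CoA, and electrons pass through the electron transfer flavoprotein to ubiquinone. Peroxisomes run a parallel cycle for very long and branched chains, and the ketone genes interconvert acetyl-CoA and ketone bodies. Brown adipocytes, heart and muscle depend on the mitochondrial cycle, and PPARα is a nuclear receptor that drives many of its genes.

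The target of the siRNA was checked first. Sfrp2, which encodes a secreted modulator of Wnt signalling, was at 11.6, 40.6 and 14.1 FPKM in the NC libraries and at 50.6, 54.6 and 55.2 FPKM in the SFRP2-siRNA libraries. FPKM counts fragments relative to gene length and to the mapped total, so levels can be compared between genes. The target was higher in all 3 libraries labelled SFRP2-siRNA than in any NC library, which goes against a knockdown at the RNA level (log2 fold change 1.45, SE 0.43, limma with Benjamini-Hochberg adjustment, adjusted p = 0.518). Of all genes tested, 13.9% also lay wholly above NC. The study reports decreased SFRP2 staining by immunofluorescence in siRNA-treated wounds of diabetic mice, and protein is not measured in these libraries. Because the RNA went the other way, groups are named by their labels throughout. Every fold change is the log2(FPKM + 1) value in the libraries labelled SFRP2-siRNA minus that in NC, and understates the change of low genes. The depth behind the values was 42.9 to 47.1 M reads per library, and single members rested on 44 to 39538 reads.

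Of the 26 mitochondrial members tested, 22 had a log2 fold change below 0 in libraries labelled SFRP2-siRNA. Of the 33 members tested, 28 had a log2 fold change below 0, or 84.8%, beside 28.2% of all 16005 genes tested. Of these 28, Acadsb, Hsd17b10 and Acaa1a turned above 0 with libraries rescaled to equal sums, and of the 5 above 0, Eci2 and Oxct1 turned below 0 with median-of-ratios scaling. The median was -0.62 for the members and 0.125 for all genes tested, and 8 members (24.2%) were below -1, beside 1.16% of all genes tested. In 20 members (60.6%) every value of the libraries labelled SFRP2-siRNA lay below every NC value, which was so for 3.92% of all genes tested. No member lay wholly above, against 13.9% of all genes tested. No member passed the adjusted threshold (limma, adjusted p under 0.05 and a change above 1), nor did any other gene (0% of those tested). At an unadjusted p under 0.05, limma counted 18 members lower and 0 higher, beside 2.86% and 6.72% of all genes tested, or 9.58% in either direction. With median-of-ratios scaling, where the median of all genes was 0.004 and that of the members -0.78, 20 members were lower at that p beside 4.69% of all genes. The limma-voom test on recovered reads also called 0 members. Adjusted p-values of the members ran from 0.518 to 0.988, so no single member is called changed. The 20 members without overlap each had an adjusted p of 0.518 in limma and a two-sided exact permutation p of 0.1, the smallest that 3 against 3 libraries allow. Without NC 1, the highest library for 23 members, the median was -0.43. Then 16 members were lower at an unadjusted limma p under 0.05 and 21 without overlap, beside 2.67% and 7.34% of all genes tested. SFRP2-siRNA 1 stood apart in hair follicle markers (summed level 26.6 FPKM against 2692 to 5593 FPKM in the other 5). Without it the median was -0.65, with 22 members lower at that p and 26 without overlap, beside 3.64% and 7.97% of all genes tested. Groups separate more easily with a library left out, so these counts are read against those shares.

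**Figure D1:**
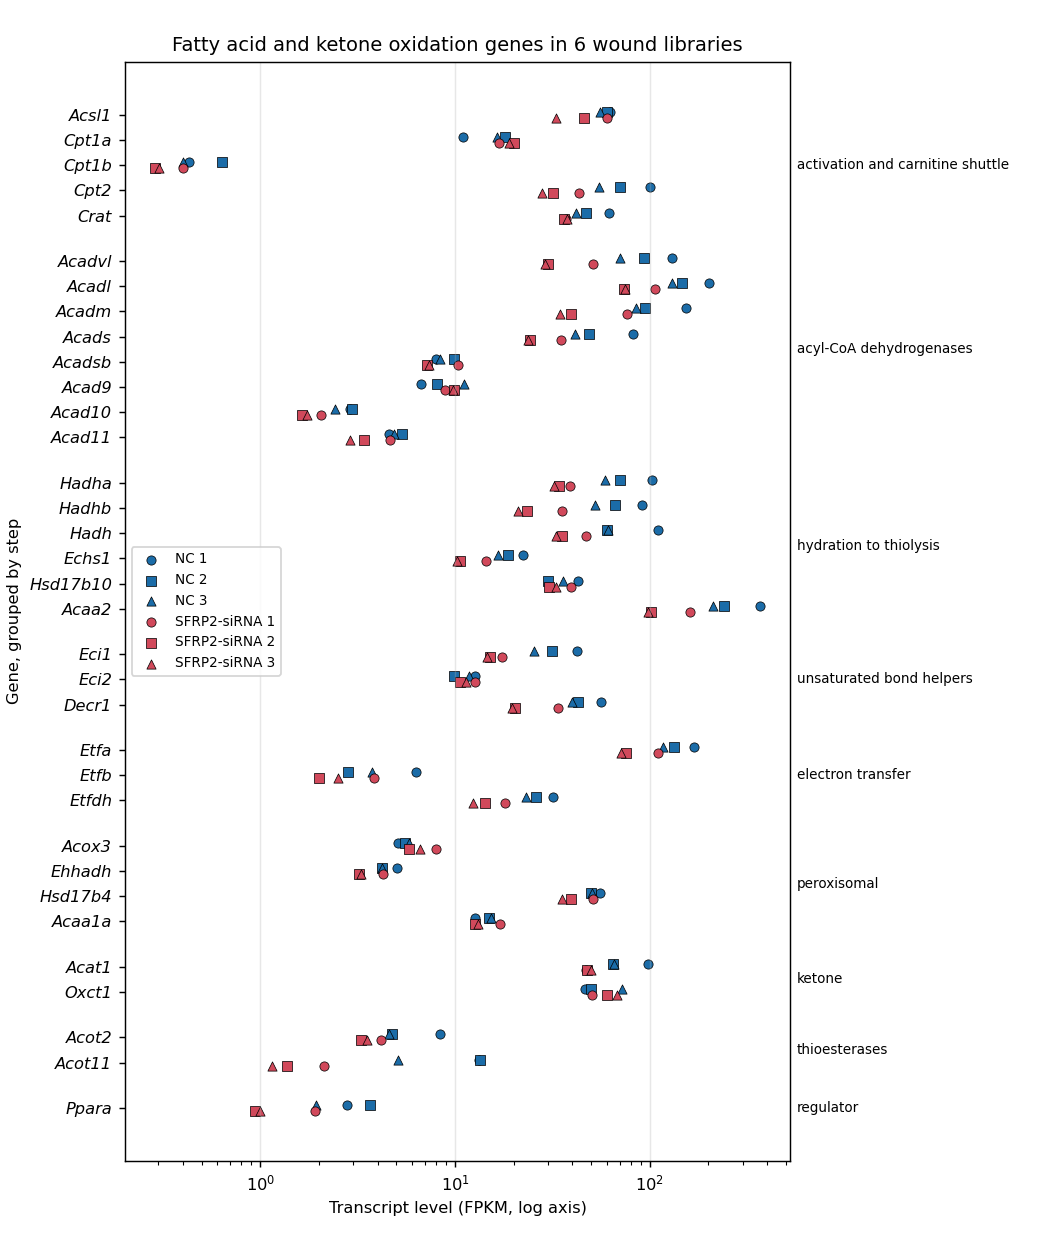
Level of each gene (FPKM, log axis) in the 6 libraries, 1 point per library, grouped by step; blue points are NC and red points the libraries labelled SFRP2-siRNA. For 18 of 26 mitochondrial genes tested the red points lie to the left of the blue ones, while 8 overlap, Oxct1 and Cpt1a among them. The peroxisomal genes overlap as well.

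The entry step was mixed. Acsl1, which activates long-chain fatty acids, was at 62.2, 60.5 and 55.7 FPKM in NC and 60.3, 46.1 and 33.2 FPKM in those labelled SFRP2-siRNA. The ranges overlapped, and the log2 fold change was -0.38 (SE 0.23, limma adjusted p = 0.548). Cpt1a, the carnitine palmitoyltransferase that controls entry in most tissues, stood at 11.0, 18.0 and 16.4 FPKM against 16.9, 20.1 and 18.9 FPKM. Its log2 fold change of 0.31 (SE 0.20, limma adjusted p = 0.561) was above 0, with overlapping ranges. Single libraries moved both values, Acsl1 to -0.59 without SFRP2-siRNA 1 and -0.17 without SFRP2-siRNA 3, and Cpt1a to 0.11 without NC 1. The muscle form Cpt1b was at 0.430, 0.639 and 0.401 FPKM against 0.401, 0.288 and 0.302 FPKM, under the filter on low values, and was not tested. Of its exon length, 81.4% is shared with a readthrough gene in the same orientation. Ratios within a library were taken as log2 of (FPKM + 1) over (FPKM + 1), so for a low gene such as Cpt1b the pseudocount of 1 sets much of the value. On that scale the ratio of Cpt1b to Cpt1a was -3.41 ± 0.30 in NC and -3.88 ± 0.18 in the other group (SD, n = 3 each), without overlap (two-sided exact permutation p = 0.1, adjusted over 4 ratios 0.4). The difference of -0.47 was -0.77 with a pseudocount of 0.1 and -0.30 without NC 1. Cpt2, which releases the acyl-CoA inside the mitochondrion, was at 100.01, 70.5 and 55.2 FPKM in NC and 43.4, 31.9 and 27.9 FPKM in those labelled SFRP2-siRNA. The groups did not overlap, and the lower group was at 45.7% of the NC mean (log2 fold change -1.09, SE 0.27). Crat, which handles short acyl groups, was at 61.6, 46.9 and 42.1 FPKM against 37.2, 36.2 and 37.6 FPKM, also without overlap (log2 fold change -0.41, SE 0.17, and -0.26 without NC 1).

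Acyl-CoA dehydrogenases make the first oxidation, each for a range of chain lengths. The enzyme for very long chains, Acadvl, had 130.4, 93.0 and 70.4 FPKM in NC and 50.9, 30.0 and 29.0 FPKM in those labelled SFRP2-siRNA. That is a log2 fold change of -1.40 (SE 0.31), with a gap between the groups. Of its exon length, 42.9% overlaps Dvl2 on the other strand, and Dvl2 itself was at 3.31 to 4.78 FPKM. Acadl, for long chains, was at 202.6, 147.0 and 130.4 FPKM against 106.8, 74.1 and 74.8 FPKM. Acadm, for medium chains, was at 153.2, 94.4 and 85.2 FPKM against 76.4, 39.6 and 34.5 FPKM, and Acads, for short chains, at 82.2, 48.9 and 41.3 FPKM against 35.1, 24.2 and 23.6 FPKM. None of these 4 overlapped between groups. The log2 fold changes were -0.90 (SE 0.24) for Acadl, -1.17 (SE 0.36) for Acadm and -0.99 (SE 0.29) for Acads. The log2 ratio of Acadl to Acadm was 0.55 ± 0.13 in NC and 0.82 ± 0.31 in the other group (SD, n = 3 each) and overlapped (two-sided exact permutation p = 0.3, adjusted over 4 ratios 0.4).

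Other members of the same family did not all share this. Acadsb, which oxidizes branched short chains from isoleucine, was at 8.0, 9.92 and 8.42 FPKM against 10.4, 7.20 and 7.38 FPKM. Acad9, also an assembly factor of complex I, was at 6.66, 8.06 and 11.1 FPKM against 8.93, 9.93 and 9.73 FPKM. Both overlapped between groups, with limma adjusted p-values of 0.831 and 0.699. Acad10 was without overlap at 2.89, 2.97 and 2.41 FPKM against 2.04, 1.63 and 1.74 FPKM (log2 fold change -0.42, SE 0.12). Acad11 was at 4.58, 5.36 and 4.86 FPKM against 4.65, 3.43 and 2.90 FPKM and overlapped.

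In the middle and at the end of the cycle, 5 of 6 genes were lower without overlap between groups, beside 3.92% of all genes tested. Hadha and Hadhb encode the subunits of the trifunctional protein, which carries out the last 3 reactions on long chains. Hadha was at 102.7, 70.3 and 59.2 FPKM in NC and 39.1, 34.1 and 32.4 FPKM in those labelled SFRP2-siRNA. Hadhb was at 91.0, 66.3 and 52.4 FPKM against 35.5, 23.4 and 21.1 FPKM. Neither overlapped, with log2 fold changes of -1.08 (SE 0.23) and -1.36 (SE 0.27). The log2 ratio of Hadha to Hadhb within a library was 0.14 ± 0.05 in NC and 0.42 ± 0.25 in those labelled SFRP2-siRNA (SD, n = 3 each), with overlapping values (difference 0.28, two-sided exact permutation p = 0.3, adjusted over 4 ratios 0.4).

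Hadh, the dehydrogenase for shorter chains, was at 111.0, 60.7 and 61.3 FPKM in NC and 47.0, 35.5 and 33.02 FPKM in those labelled SFRP2-siRNA. Echs1, the short-chain hydratase, was at 22.5, 18.6 and 16.7 FPKM against 14.4, 10.6 and 10.3 FPKM. The thiolase Acaa2 was the most abundant member at 369.2, 240.0 and 211.9 FPKM against 161.2, 101.3 and 97.7 FPKM. All 3 were without overlap, with log2 fold changes of -0.95, -0.67 and -1.18. Hsd17b10, which also acts in isoleucine breakdown and in mitochondrial tRNA processing, was the exception of this step, at 42.7, 30.0 and 36.0 FPKM against 39.6, 30.3 and 33.2 FPKM (log2 fold change -0.07, SE 0.18, limma adjusted p = 0.869).

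The 250 bases before the start of a gene were searched in RefSeq (GRCm38.p6), in 29 windows of 27 members. The half-site of PPAR and related nuclear receptors is AGGTCA on either strand. It was in 4 of 29 member windows, those of Acadm, Acadvl, Cpt1a and Echs1, and in 14% of 32851 windows of all genes. An exact direct repeat of AGGTCA with any base between the copies, the PPAR element, was in no member and in 0.0335% of all windows. The longer half-site TCAAGGTCA was in no member and in 0.387%. At shares this low a count of 0 was likely in 29 windows, so the absence says little about these members. Inexact copies and bases beyond these windows were not searched. The Sp1-type box GGGCGG was in 19 of 29 member windows, from 19 members, and in 32.7% of all windows. A match is a description of letters, not a binding site. The windows with AGGTCA are shown because they hold both genes that were lower without overlap (Acadvl, Acadm, Echs1) and Cpt1a, which was not, with AGGTCA or its reverse complement in capitals. The stretch between Hadha and Hadhb is shown because these genes run in opposite directions on chr5 with 272 bases between their starts, with GGGCGG in capitals. Bases within exons are left out, and each sequence runs 5′ to 3′ on the strand of its gene, that of Hadhb for the shared stretch.
Acadvl, chr11:70015429-70015678, minus strand: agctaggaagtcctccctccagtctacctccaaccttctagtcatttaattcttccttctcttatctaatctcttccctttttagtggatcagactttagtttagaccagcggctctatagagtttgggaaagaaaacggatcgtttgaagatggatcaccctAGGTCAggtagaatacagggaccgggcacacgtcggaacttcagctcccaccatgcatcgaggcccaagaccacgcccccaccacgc
Acadm, chr3:153944644-153944893, minus strand: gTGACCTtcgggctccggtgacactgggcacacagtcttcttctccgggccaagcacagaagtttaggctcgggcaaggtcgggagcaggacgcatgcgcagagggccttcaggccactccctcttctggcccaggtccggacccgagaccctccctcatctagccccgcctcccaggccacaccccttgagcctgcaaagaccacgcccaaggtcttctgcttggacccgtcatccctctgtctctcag
Echs1, chr7:140116477-140116671, minus strand: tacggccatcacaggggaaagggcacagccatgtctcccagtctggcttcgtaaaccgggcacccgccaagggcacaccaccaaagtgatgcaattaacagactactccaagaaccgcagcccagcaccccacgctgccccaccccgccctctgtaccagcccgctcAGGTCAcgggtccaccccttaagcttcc
Cpt1a, chr19:3323051-3323284, plus strand: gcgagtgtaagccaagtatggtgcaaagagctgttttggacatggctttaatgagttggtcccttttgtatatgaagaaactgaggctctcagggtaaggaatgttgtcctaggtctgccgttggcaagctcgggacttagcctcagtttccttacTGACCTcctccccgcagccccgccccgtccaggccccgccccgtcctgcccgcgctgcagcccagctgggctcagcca
Hadhb and Hadha, chr5:30155163-30155247, plus strand: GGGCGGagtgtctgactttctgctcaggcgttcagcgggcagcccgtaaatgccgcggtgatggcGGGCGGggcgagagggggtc

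Unsaturated fatty acids need helper enzymes to move or reduce their double bonds. Eci1, a mitochondrial isomerase, was at 42.4, 31.4 and 25.5 FPKM in NC and 17.4, 15.2 and 14.6 FPKM in those labelled SFRP2-siRNA. Decr1, the mitochondrial reductase, was at 56.4, 43.0 and 39.8 FPKM against 33.9, 20.3 and 19.6 FPKM. Both were without overlap (log2 fold changes -1.0 and -0.92). Eci2, an isomerase of peroxisomes as well as mitochondria, was nearly equal, at 12.7, 9.87 and 11.8 FPKM against 12.7, 10.6 and 11.4 FPKM (limma adjusted p = 0.956).

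Electrons from the dehydrogenases leave through Etfa, Etfb and Etfdh. Etfa was at 169.3, 132.9 and 116.9 FPKM in NC and 110.8, 75.96 and 70.8 FPKM in those labelled SFRP2-siRNA, without overlap. Etfdh, the membrane oxidoreductase, was at 31.7, 26.1 and 23.3 FPKM against 18.0, 14.3 and 12.4 FPKM, also without overlap. Etfb, the partner subunit of Etfa, was at 6.27, 2.81 and 3.73 FPKM against 3.82, 2.01 and 2.50 FPKM and overlapped; 58.2% of its exon length is shared with other annotated genes, so its level depends on how those reads were counted. With the pseudocount of 1, which lowers it because Etfb is low, the log2 ratio of Etfa to Etfb was 4.78 ± 0.32 in NC and 4.52 ± 0.16 in those labelled SFRP2-siRNA (SD, n = 3 each, two-sided exact permutation p = 0.4, adjusted 0.4). The difference of -0.25 was -0.14 with a pseudocount of 0.1, -0.071 without NC 2 and -0.17 without SFRP2-siRNA 3. Without NC 1 the log2 fold change of Etfb, -0.46, was -0.20.

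**Figure D2:**
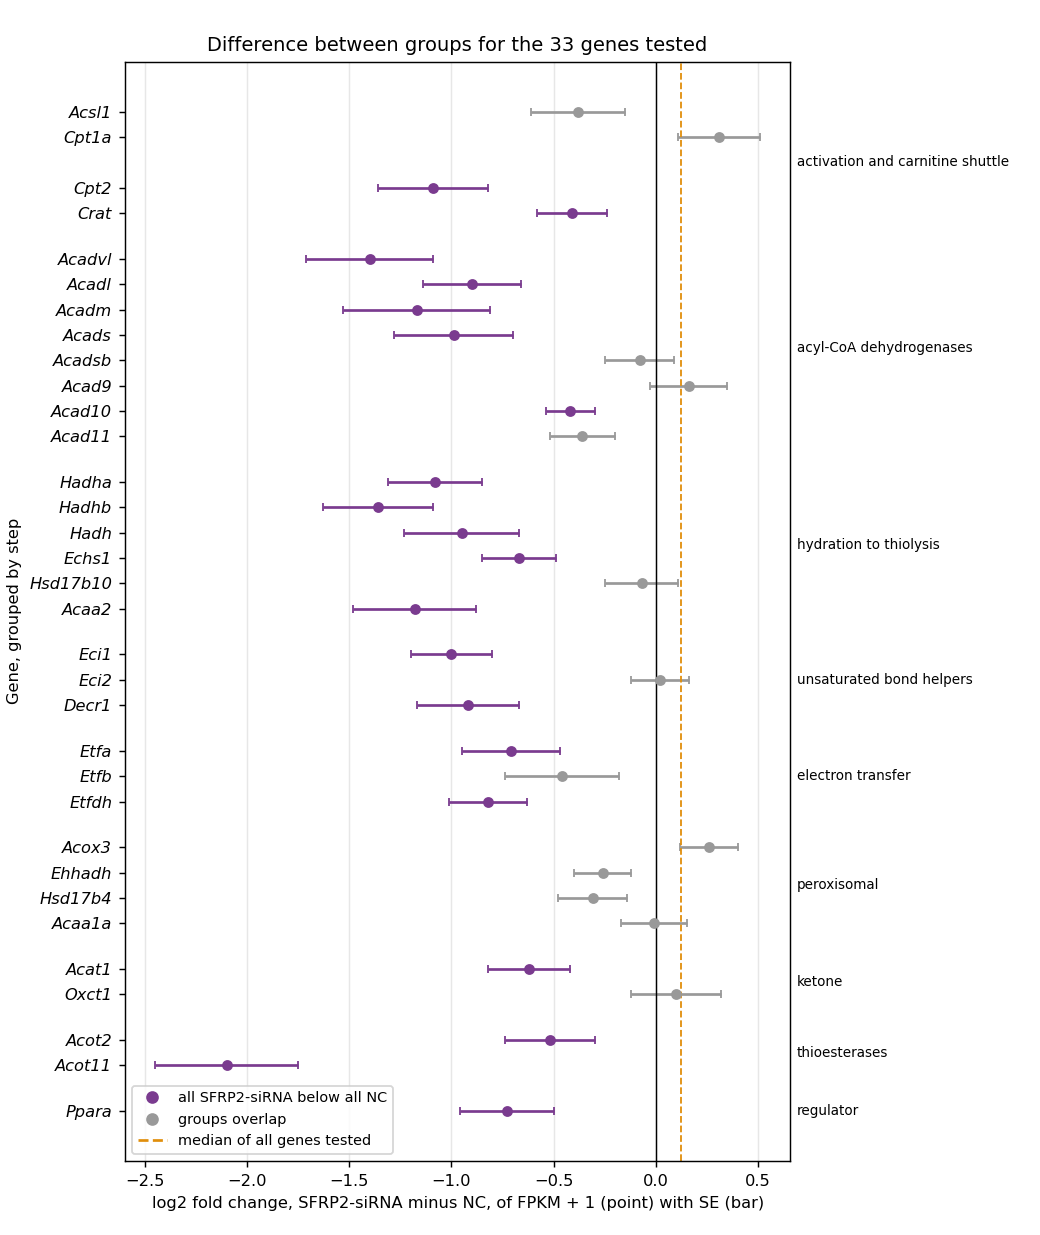
Log2 fold change of each tested gene on the log2(FPKM + 1) scale, the libraries labelled SFRP2-siRNA minus NC, with bars of 1 standard error from limma. Acot11 is lowest at -2.10, and 5 of 33 genes lie above 0.

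The 4 peroxisomal enzymes overlapped between groups, as most genes did, since 3.92% of all genes tested were separated on the low side and 13.9% on the high side. Acox3, an oxidase of branched chains, was at 5.11, 5.51 and 5.82 FPKM in NC and 7.95, 5.79 and 6.59 FPKM in those labelled SFRP2-siRNA. The bifunctional enzyme Ehhadh was at 5.05, 4.21 and 4.24 FPKM against 4.24, 3.22 and 3.30 FPKM, and the other bifunctional enzyme, Hsd17b4, at 55.2, 49.8 and 50.6 FPKM against 51.2, 39.6 and 35.3 FPKM. Acaa1a, the peroxisomal thiolase, was at 12.7, 14.9 and 15.3 FPKM against 17.0, 12.7 and 13.2 FPKM. None of the 4 reached an unadjusted limma p under 0.05, and their median log2 fold change was -0.13. With Acad11 counted as peroxisomal too, the median was -0.26. The mitochondrial members were all but these 4, Acad11, Acot11 and Ppara, so Eci2 was counted among them. For the 26 mitochondrial members tested the median was -0.69. Of these, 16 of 26 were lower at an unadjusted limma p under 0.05 and 18 lower without overlap, beside 2.86% and 3.92% of all genes tested. The difference between the organelles was not tested.

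Summed over the 34 members, the level was 2130.0, 1549 and 1408 FPKM in NC and 1173, 873 and 842 FPKM in those labelled SFRP2-siRNA. The 4 peroxisomal genes summed to 78.1, 74.4 and 76.02 FPKM against 80.4, 61.3 and 58.4 FPKM. The first sum separated the groups and the second did not. Within each group the libraries also differed together. NC 1 was highest within NC and SFRP2-siRNA 1 highest within its group for 21 of 33 members tested (63.6%), beside 9.47% of all genes tested.

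**Figure D3:**
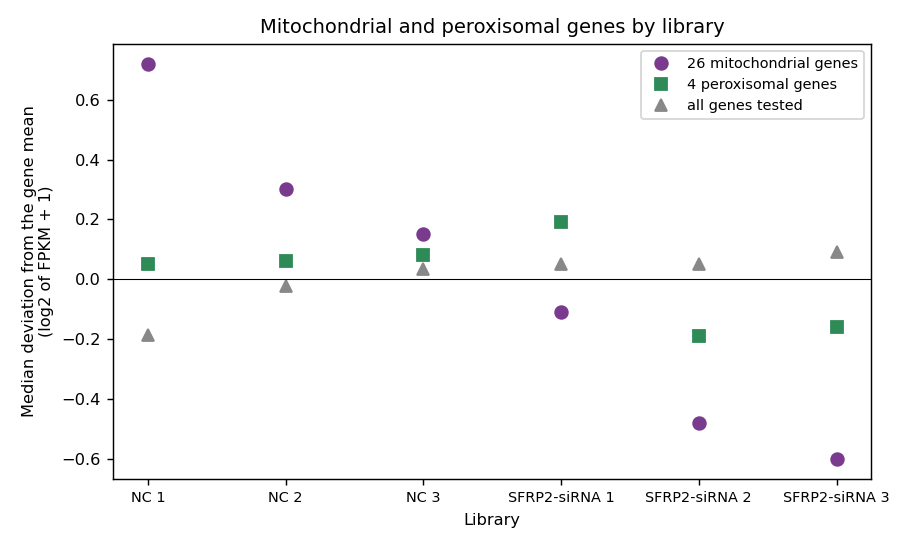
Median deviation from each gene's mean over the 6 libraries (log2 of FPKM + 1), by library, for 26 mitochondrial genes, 4 peroxisomal genes and all genes tested. Mitochondrial genes run from 0.72 in NC 1 to -0.60 in SFRP2-siRNA 3, while peroxisomal genes stay between -0.19 and 0.19.

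The ketone genes divided. Acat1, the mitochondrial thiolase of ketone and isoleucine metabolism, was at 97.7, 64.5 and 65.8 FPKM in NC and 46.9, 47.8 and 49.9 FPKM in those labelled SFRP2-siRNA, without overlap (log2 fold change -0.62, SE 0.20). Oxct1, which activates ketone bodies for use, was at 46.4, 49.8 and 71.9 FPKM against 50.2, 60.3 and 67.9 FPKM (limma adjusted p = 0.835). Bdh1, a gene outside the set that interconverts ketone bodies and was picked after its values were seen, also overlapped, at 6.20 to 12.1 FPKM in the 6 libraries.

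Thioesterases release free fatty acids from acyl-CoA. Acot11, also known as Them1 and abundant in brown fat, had the largest fold change of the set. It was at 13.2, 13.5 and 5.11 FPKM in NC and 2.13, 1.37 and 1.14 FPKM in those labelled SFRP2-siRNA, or 10.6 ± 4.76 against 1.55 ± 0.518 FPKM (SD, n = 3 each). The groups did not overlap (log2 fold change -2.10, SE 0.35). Of the exon length of Acot11, 20.9% overlaps Fam151a on the other strand, which was at or below 0.0444 FPKM. Acot2, a mitochondrial thioesterase, was at 8.34, 4.77 and 4.57 FPKM against 4.18, 3.30 and 3.54 FPKM, a gap of less than the spread within NC (log2 fold change -0.52, SE 0.22, and -0.28 without NC 1). Ppara was at 2.80, 3.64 and 1.94 FPKM in NC and 1.91, 0.938 and 1.00 FPKM in those labelled SFRP2-siRNA. Its nearest values, 1.94 and 1.91 FPKM, differed by less than the spread within either group (log2 fold change -0.73, SE 0.23).

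Neighbouring genes of the pathway were read from 9 further lists, 110 genes tested, with 24 lower and 3 higher at an unadjusted limma p under 0.05, beside 2.86% and 6.72% of all genes tested, and none past the adjusted threshold. With lists this short, a count of 0 or 1 is near that background. Of 14 other genes of acyl-CoA oxidation, 14 had a log2 fold change below 0 and 10 were without overlap on the low side, beside 3.92% of all genes tested, with Pcca, of propionyl-CoA carboxylase, at 16.6, 13.5 and 11.4 FPKM against 8.87, 6.34 and 5.85 FPKM. Of 10 genes of carnitine supply and malonyl-CoA, 3 were lower and 1 higher at that p. Slc25a20, the carnitine carrier, was at 42.4, 27.4 and 22.9 FPKM against 20.03, 14.6 and 12.4 FPKM. Acaca, whose product malonyl-CoA inhibits entry of fatty acids, was lower as well, at 38.1, 40.9 and 22.5 FPKM against 11.2, 6.28 and 7.10 FPKM. Of 11 genes of fatty acid uptake 2 were lower, of 10 other acyl-CoA synthetases 4 were lower and 1 higher, of 8 other ketone genes 1 was lower, and of 7 other thioesterases 0 were. Aacs, which activates acetoacetate in the cytosol, had a log2 fold change of -0.70. Of 17 other peroxisomal genes, 1 was lower at that p, Phyh, of phytanic acid oxidation, and the median was -0.09. Of 19 other regulators, 3 were lower, with Lpin1, Ppargc1b and Sirt3 at log2 fold changes of -0.78, -0.44 and -0.50, and the median was 0.06. Of 14 known PPAR targets outside oxidation, 4 were lower and 1 higher at that p. The smallest p was that of Plin5, a lipid droplet protein of oxidative tissue, which was at 30.2, 24.4 and 13.6 FPKM against 10.4, 5.42 and 4.57 FPKM (log2 fold change -1.61), and Cidea of the same list had the larger difference, -2.23.

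Lists outside oxidation were read by their counts, and no gene of either passed the adjusted threshold. All 25 genes of the TCA cycle and pyruvate entry had a log2 fold change below 0 (median -0.77, 22 at an unadjusted limma p under 0.05, beside 2.86% of all genes tested lower at that p), as did 14 of 15 of de novo lipogenesis (median -1.26, 12 at that p), a pathway that runs in the opposite direction to oxidation.

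Brown adipocytes burn fatty acids for heat. The summed level of 10 of their markers was 2176, 1217 and 755 FPKM in NC and 486, 232 and 212 FPKM in those labelled SFRP2-siRNA, without overlap. Of the 10, 9 had a log2 fold change below 0, beside 28.2% of all genes tested. Without overlap, 5 of 10 were lower and 1 was higher, beside 3.92% and 13.9% of all genes tested. Ucp1, the uncoupling protein of brown fat, was at 1061, 615 and 315 FPKM against 157, 39.9 and 19.1 FPKM, and Cidea at 481.6, 311 and 180.0 FPKM against 132, 50.7 and 37.3 FPKM. None of the 10 was at 0 in every library. Sebaceous gland markers, which share Cidea and Elovl3 with that list, had a separated sum, 1009 to 1424 FPKM against 423 to 685 FPKM, but 6 of 12 lay below 0 and 6 above (median -0.02) and 10 overlapped. Fasn, of fatty acid synthesis, and Cidea made up much of that sum, Fasn at 579, 507 and 279.8 FPKM against 124, 56.9 and 71.1 FPKM. White adipocyte markers overlapped (1809 to 2183 FPKM in NC, 1150 to 2507 FPKM in those labelled SFRP2-siRNA), and none of 12 was separated, although 11 of 12 had a log2 fold change below 0 (median -0.21). Skeletal muscle markers overlapped too, with 11 of 12 at a log2 fold change above 0. Most genes tested also lay above 0, with 28.2% of all genes tested below it. Keratinocyte markers, which the wound edge should hold, summed to 4073 to 7428 FPKM over the 6 libraries and overlapped, as did neutrophil and endothelial markers. Macrophage and fibroblast sums were higher without overlap, 1910 to 2537 against 1069 to 1706 FPKM and 2556 to 2634 against 1057 to 2344 FPKM. As single genes, 5 of 12 macrophage and 8 of 12 fibroblast markers were higher without overlap, beside 13.9% of all genes tested. The share of summed FPKM from mitochondrially encoded genes was 35.8%, 22.2% and 17.4% in NC and 16.6%, 11.8% and 13.8% in those labelled SFRP2-siRNA. The part of these cell types and of the mitochondrially encoded share in the oxidation genes was not tested.

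**Figure D4:**
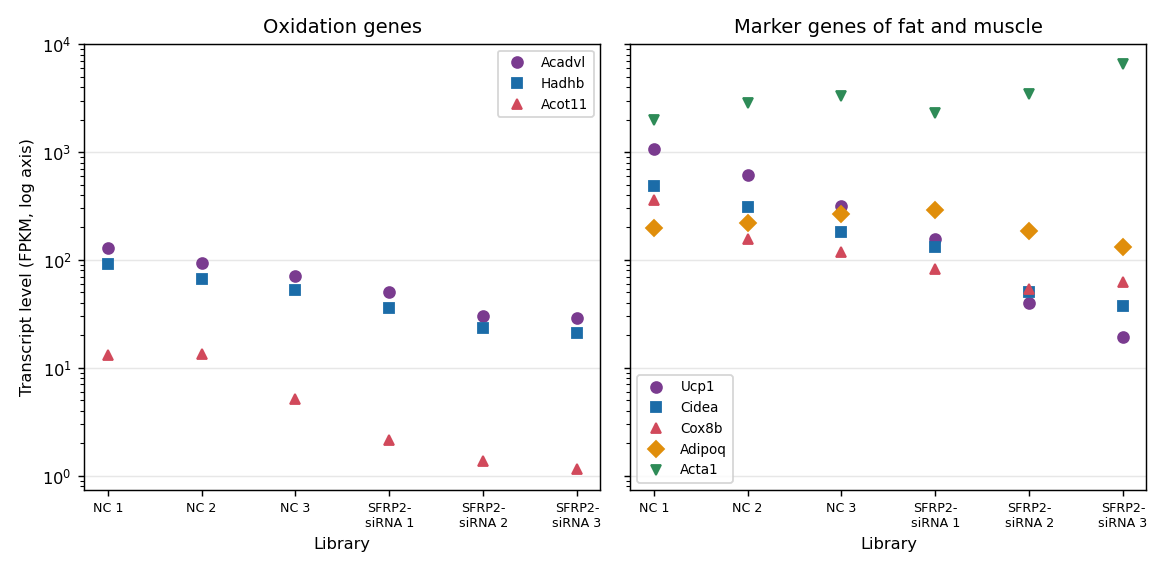
Levels by library (FPKM, log axis) of Acadvl, Hadhb and Acot11 at left and of the brown fat markers Ucp1, Cidea and Cox8b, the white fat marker Adipoq and the muscle marker Acta1 at right. Ucp1 runs from 1061 FPKM in NC 1 to 19.1 FPKM in SFRP2-siRNA 3, while Adipoq overlaps between groups.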

How the data were processed

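Gene levels from paired-end mRNA libraries were deposited by the authors as FPKM. The submitters' processing notes name HISAT2, Subread and featureCounts. Their versions, the genome build and the strand setting are not given in the sources used here. Whole reads were recovered from the FPKM steps with GENCODE vM21 gene lengths and gave each library's depth. Symbols matched 32582 of 33184 gene IDs. The 16005 genes averaging 0.5 FPKM or more were tested as log2(FPKM + 1) by limma 3.58.1 in R 4.3.3 (lmFit, eBayes with trend, two-sided, Benjamini-Hochberg over all genes tested), since FPKM values fit no count model. The code was tested on simulated data. Within-library ratios were compared by exact permutation over the libraries (two-sided). Named genes were all 34 members, Sfrp2, up to 3 genes of smallest p per pathway list and the 3 highest per marker list, of which a selection is printed. The members and lists were chosen with earlier results of these data known. Alternatives were other pseudocounts, filters, scalings and variance models, the replicate number as a block, leaving out each library and, chosen after seeing the data, limma-voom on recovered reads.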

Additional observations from a re-analysis of the deposited data

How the results depend on the processing

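No member passed the adjusted threshold under any of 16 alternatives, and the smallest adjusted p of a member (limma or limma-voom, Benjamini-Hochberg) was 0.191, without SFRP2-siRNA 1. Members lower at an unadjusted p under 0.05 numbered 15 to 22 across alternatives, beside 1.89% to 4.73% of all genes tested. Those without overlap on the low side numbered 19 to 26, beside 2.79% to 7.97%. The median ran from -0.80 to -0.43, lowest in size without NC 1. Leaving out a library let 0 to 3 members lie wholly above NC. The share of all genes wholly above was 13.9% with all 6 libraries and was not taken for these fits. Scaling moved the median of all genes from 0.125 to 0.196 (equal sums) or 0.004 (median-of-ratios). With equal sums, Acadsb (0.0032), Hsd17b10 (0.025) and Acaa1a (0.083) turned positive. Eci2 and Oxct1 turned negative with median-of-ratios scaling (-0.13, -0.055), with equal sums without mitochondrially encoded genes (-0.084, -0.0080) and with limma-voom on median-of-ratios library sizes (-0.14, -0.056). Leave-one-out ranges that crossed 0 were -0.23 to 0.0026 for Acadsb, -0.19 to 0.054 for Hsd17b10, -0.13 to 0.069 for Acaa1a, -0.076 to 0.090 for Eci2 and -0.019 to 0.29 for Oxct1. Acox3 (0.26) was 0.15 without SFRP2-siRNA 1, and Hsd17b4 (-0.31) was -0.20 without SFRP2-siRNA 3. The cause was not tested. Cpt1b was tested only without the filter on low values. Over all genes tested, the deviations of same-numbered libraries correlated at -0.0473, -0.151 and 0.38. Only the third pair was above 0.1, so the numbers were not taken as pairs, although the first libraries of both groups were high together for 21 of 33 members. With the replicate block 20 members were lower at an unadjusted limma p under 0.05, beside 4.21% of all genes tested. The median was then -0.62 and the smallest adjusted p was 0.193. Genes sharing exons with others (Cpt1b, Etfb, Acadvl) and the unstated strand setting limit those levels.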
